A study of Mus musculus with 36 samples.

Results

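The 7 genes described here handle cholesterol at the hepatocyte surface or sense it in the nucleus: Abcg5 and Abcg8 (excretion), Gpr146 (a receptor tied to plasma cholesterol), Abca1 and Scarb1 (exchange with HDL), and Nr1h2 and Nr1h3 (the liver X receptors). They were taken by name, not by their values, from 52230 mouse genes whose reads were summed, and all 7 were among the 12177 genes with enough reads to be tested. Hepatocytes came from 3 female mice of the GCKR-P446L-EMI-B6N strain, of which mice 1 and 2 carried Gckr-446L and mouse 3 carried Gckr-446P/L. These cells are called GKRP-deficient in the study, and GKRP, the product of Gckr, is the liver protein that binds glucokinase (GK) and holds it inactive in the nucleus.

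The cells attached as a monolayer and then received adenoviral vectors for GK, for GKRP, for both, or none. GKRP was human or mouse, each with proline (446P) or leucine (446L) at the common variant position, written here hP, hL, mP and mL. All groups were kept for 24 h at 5 mM glucose, with 10 nM insulin and 10 nM dexamethasone in the culture medium, and then for 4 h at 25 mM glucose. The 10 conditions were untreated, hP, hL, mP and mL at endogenous GK, and GK alone, GK+hP, GK+hL, GK+mP and GK+mL. Untreated and GK-alone cells had 2 cultures from each mouse, which were summed, and the other conditions had 1, so that 36 cultures gave 30 samples, 3 in each condition. Untreated cells received no vector of any kind, so that the presence of a vector and of GKRP cannot be told apart in a comparison with them. The genotype of mouse 3 and the animal itself cannot be told apart either. The experiment asked how the 446P and 446L proteins differ in their effect on transcripts at endogenous and at raised GK.

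ABCG5 and ABCG8 join into a single transporter that moves cholesterol and plant sterols across the canalicular membrane of the hepatocyte into bile. ABCA1 passes cholesterol and phospholipid to lipid-poor apolipoprotein A-I, the first step in making HDL, and SR-BI, the product of Scarb1, takes up cholesteryl ester from HDL. The liver X receptors, LXRβ (Nr1h2) and LXRα (Nr1h3), bind oxysterols and, paired with a retinoid X receptor, raise transcription of Abcg5, Abcg8, Abca1 and lipogenic genes such as Srebf1 and Fasn. GPR146 is a G protein-coupled receptor of hepatocytes that is known for its effect on VLDL secretion through SREBP2.

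Abcg5 and Abcg8 lie head to head on mouse chromosome 17 (GRCm39), Abcg5 on the minus strand at chr17:84964851-84990494 and Abcg8 on the plus strand at chr17:84983730-85007765. The main annotated start sites, of Abcg5-201 at 84990439 and of Abcg8-203 at 84990452, are separated by only 12 bases. These bases are in capitals in the plus-strand sequence at chr17:84990431-84990460, shown because both genes are transcribed away from it.
Abcg5-Abcg8: ttcaccaatTTGGCCAACGATgccattatc
The annotated extents of both genes overlap on opposite strands, and whether the libraries kept strand is not given in the sources used here. The division of reads between Abcg5 and Abcg8 is therefore uncertain.
Abca1 (chr4:53030787-53159900, minus strand) holds a match to the LXR response element, shown here because it is the textbook way in which LXR reaches this gene. The letters searched were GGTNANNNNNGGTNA, on both strands, from 250 bases before to 50 bases after the start site. The match is in capitals at chr4:53159940-53159969, written in the direction of the gene, lies on the opposite strand and is 62 bases before the start site at 53159900.
Abca1: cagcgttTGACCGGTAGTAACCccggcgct
The same search found a match in 65 of 12177 promoters (0.534%) and in none of the other 6 genes, which says only that these letters were not in that window. The other genes were Gpr146 at chr5:139363452-139382170 on the plus strand, Scarb1 at chr5:125353547-125418176 on the minus strand, Nr1h2 at chr7:44199036-44203406 on the minus strand, and Nr1h3 at chr2:91014394-91033417 on the minus strand.

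The 36 libraries held 3924674 to 10046158 estimated reads (median 5980276). Values are given as CPM, read counts set relative to the TMM-scaled total of the library. Hepatocyte markers were high in all 30 samples, with Alb at 62262 to 122134 CPM, and the summed markers of macrophages reached 246 to 356 CPM, of sinusoidal endothelium 55.9 to 83.2 CPM and of stellate cells 24.5 to 161 CPM. Cholangiocyte markers summed to 15.4 to 245 CPM, almost all from Spp1 and Sox9, while Krt7 was at 0 in 9 samples and Cftr at 0 in 19. Mouse Gckr reads numbered 8934 to 23273 CPM in the 12 samples with a mouse GKRP vector, and were no check of the human vectors. Against its label, 1 of the 6 GK-alone cultures, from mouse 3, held 1462 CPM of Gckr, while its sister culture held 98.0 CPM and the other 4 held 51.8 to 69.7 CPM. In addition, 2 libraries of mouse 1 were low in long transcripts. In the GK+mP library of mouse 1, genes with an effective length of 6 kb or more (269 genes) lay at a median of -1.05 on the log2 scale from the other samples of that mouse, and in the GK+hL library at -0.52. The other 28 libraries lay between -0.11 and 0.13.

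A gene was called different where the Benjamini-Hochberg adjusted p of edgeR's quasi-likelihood test over all 12177 genes was under 0.05 and the fold change was at least 1.3 or at most 0.7. Without a term for the mouse, 0 of the 7 genes were called in any comparison. The counts against which this is read are 52 of 12177 genes (0.427%) for GK alone against the 5 endogenous-GK conditions, pooled as 1 group. With 1 coefficient per condition instead, that comparison called 73 higher and 72 lower genes. The next counts were 1 gene (0.00821%) for GK alone against untreated, and 230 genes (1.89%) for the average of hP, hL, mP and mL against untreated (the GKRP difference). At raised GK they were 196 genes (1.61%) for the average of GK+hP, GK+hL, GK+mP and GK+mL against GK alone, 2 genes (0.0164%) for GK with GKRP against GKRP, and 0 genes (0%) for 446L against 446P. That last 0 stood beside 291 genes at an unadjusted p under 0.05. Where nothing differs, that cut takes in a larger share, about 0.05 of the 12177. DESeq2 called 12 higher and 5 lower genes in the same comparison. All samples of a mouse came from the same animal, so that the fit was repeated with the mouse as a block. The block raised those percentages to 1.99%, 0.361%, 4.16%, 4.34%, 0.14% and 0.345%, in the same order. With the block, 1 of the 7 genes, Gpr146, was called, and in 1 of these 6 comparisons, the GKRP difference from untreated.

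**Figure D1:**
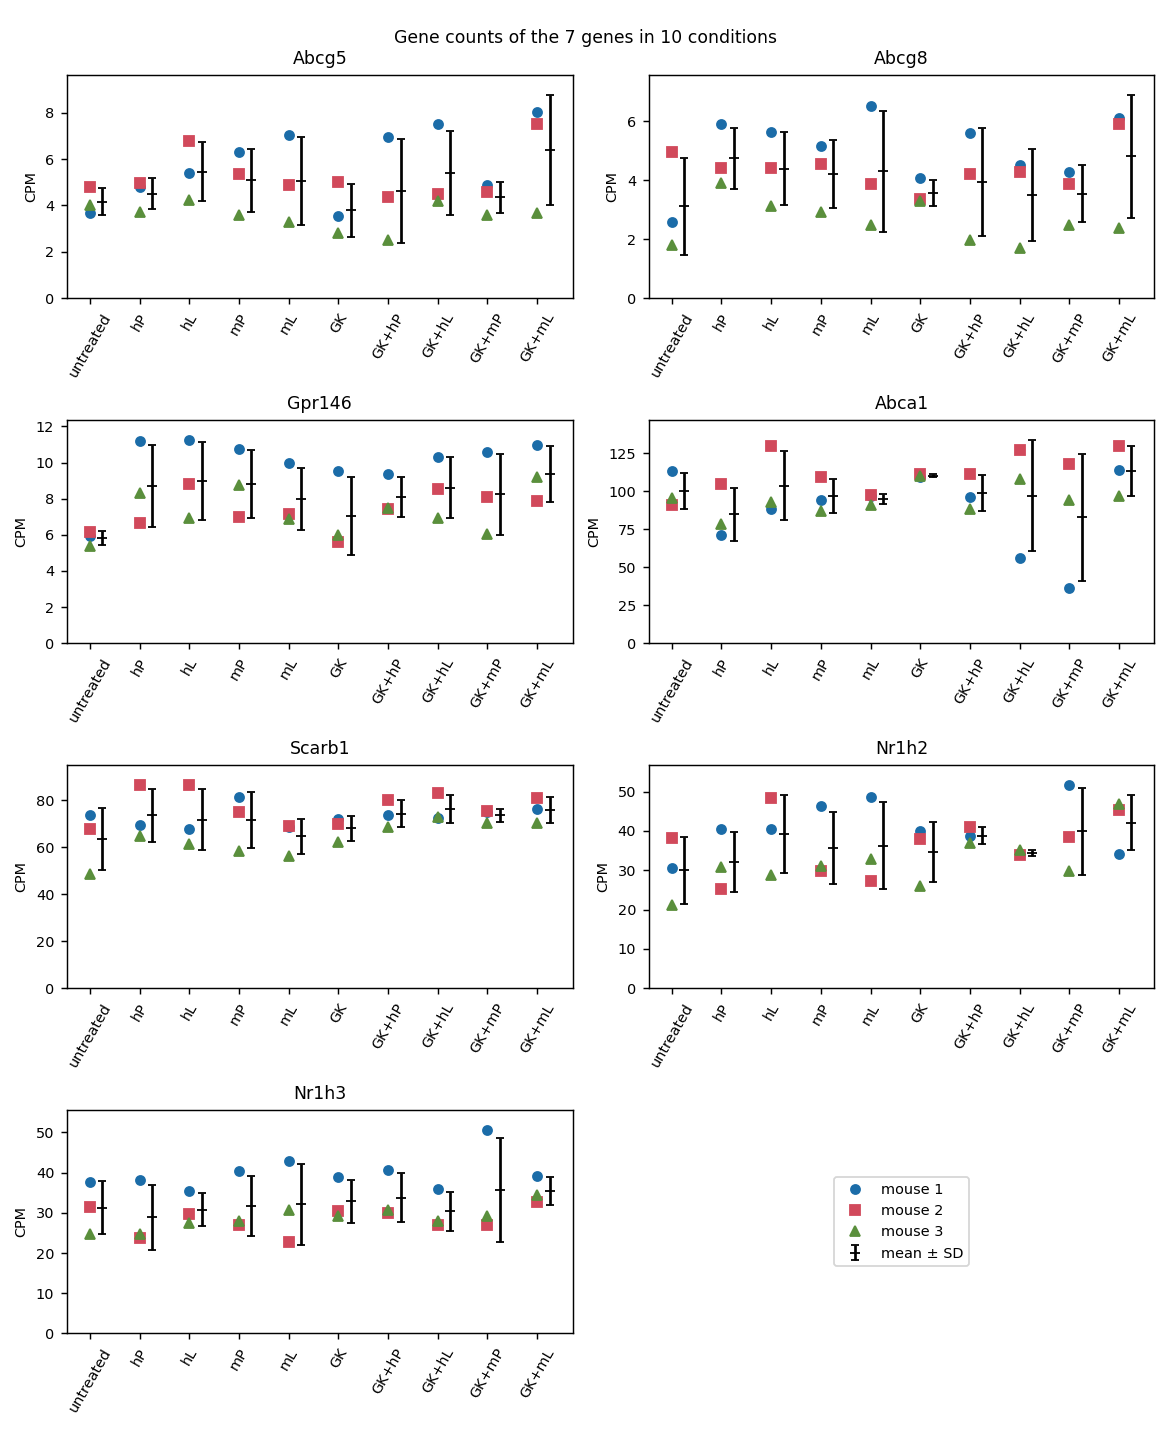
CPM of each of the 7 genes (vertical axes, from 0) in the 10 conditions (horizontal axes); symbols are the 3 mice, and the bars beside them show the mean ± SD over mice. The 3 untreated samples of Gpr146, each summed over sister cultures, sit at 5.37 to 6.15 CPM, below all 12 samples with a GKRP vector at endogenous GK. Abca1 falls to 36.3 and 56.3 CPM in the 2 mouse 1 libraries that are low in long transcripts.

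Gpr146 values with GKRP vectors lay above those of untreated cells, a difference that was called with the mouse as a block and not without it. Untreated cells held 5.94, 6.15 and 5.37 CPM in mice 1, 2 and 3 (5.82 ± 0.404, SD, n = 3). The hP cells held 11.2, 6.67 and 8.28 CPM, and the hL cells 11.2, 8.79 and 6.95 CPM. The mP cells held 10.7, 6.96 and 8.74 CPM, and the mL cells 9.95, 7.13 and 6.85 CPM. All 12 of these samples (median 8.51 CPM) lay above all 3 untreated samples, as did 237 of the 12177 genes tested (1.95%). For Gpr146 this held only with sister cultures summed. The untreated cultures of mouse 1 held 4.68 and 7.84 CPM. The higher of them lay above some of the 12 samples, such as the 6.67 CPM of hP in mouse 2. The next highest untreated culture held 6.53 CPM, below all 12. The average of the 4 vectors less untreated was 0.56 on the log2 scale (SE 0.206, 95% interval 0.14 to 0.99, edgeR adjusted p = 0.251) and was higher in 3 of 3 mice. With the mouse as a block it was 0.53 (SE 0.119, 95% interval 0.28 to 0.78, edgeR adjusted p = 0.00639), which is past the threshold.

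The call rested on the block and on the animals kept. Within mice the log2 difference was 0.83 in mouse 1, 0.25 in mouse 2 and 0.49 in mouse 3. In the blocked fit, the difference was 0.38 without mouse 1 (edgeR adjusted p = 0.252), 0.52 without mouse 3 (edgeR adjusted p = 0.136) and 0.67 without mouse 2 (edgeR adjusted p = 0.0236), so that leaving out mouse 1 or mouse 3 ended the call. Without the block, DESeq2 gave an adjusted p of 0.181, and the edgeR fit with each culture as a sample one of 0.0667. The gene had 32 to 105 reads per sample, and the spread left after mouse and condition (0.17, SD on the log2 scale) was no larger than the counting spread alone (0.19). Of single vectors in the blocked edgeR fit, hP (0.55, adjusted p = 0.0468), hL (0.59, adjusted p = 0.0255) and mP (0.57, adjusted p = 0.0283) were called, against 2.46%, 2.97% and 3.31% of all genes. The mL difference was 0.42 (95% interval 0.11 to 0.73, edgeR adjusted p = 0.144), against 3.16% of all genes called there. Of the markers of other liver cells with enough reads, 0 of 10 for macrophages, 0 of 8 for sinusoidal endothelium, 0 of 5 for stellate cells and 0 of 2 for cholangiocytes were called in the GKRP difference, with or without the block, where 1.89% and 4.16% of all genes were. Without the block their values lay below untreated for the most part: 2 of 10 (median -0.14), 3 of 8 (-0.09), 1 of 5 (-0.09) and 0 of 2 (-0.37), in the same order, were above 0, beside a median of 0.00 over all genes. The part of these cells in the Gpr146 difference was not tested. The 4 vectors share the untreated samples, and the difference of 446L from 446P at endogenous GK was -0.05 (95% interval -0.43 to 0.32, edgeR adjusted p = 1), an interval that holds changes of either sign.

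GK did not move Gpr146 past the threshold. GK-alone cells held 9.53, 5.60 and 5.99 CPM in mice 1, 2 and 3, and the high value of mouse 1 came from 1 of its 2 cultures, at 12.1 CPM against 5.66 CPM in the sister culture. GK alone against untreated was 0.27 (95% interval -0.25 to 0.79, edgeR adjusted p = 1), higher in 2 of 3 mice, and against the 5 endogenous-GK conditions -0.19 (95% interval -0.62 to 0.24, edgeR adjusted p = 1), lower in 3 of 3 mice. The 12 samples with GK and a GKRP vector held 6.06 to 10.98 CPM (median 8.32), which overlaps the GK-alone samples. Their difference from GK alone was 0.28 (SE 0.201, 95% interval -0.13 to 0.70, edgeR adjusted p = 0.797), higher in 3 of 3 mice, and 0.30 with the block (edgeR adjusted p = 0.129). The interaction, the GKRP difference at raised GK less that at endogenous GK, was -0.28 (95% interval -0.86 to 0.30, edgeR adjusted p = 1), and so a dependence of the GKRP difference on GK was not shown.

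Abcg5 and Abcg8 were thinly covered, with 19 to 69 reads per sample for Abcg5 and 8 to 66 for Abcg8, and neither was called in any comparison. Untreated cells held 3.66, 4.80 and 4.02 CPM of Abcg5 in mice 1, 2 and 3, and GK-alone cells 3.54, 5.01 and 2.80 CPM. The 12 samples with a GKRP vector at endogenous GK held 3.27 to 7.03 CPM (median 4.93), and the 12 with GK and a GKRP vector 2.49 to 8.02 CPM (median 4.52). Both ranges overlap the untreated and the GK-alone values. The GK-alone condition had the lowest mean of the 10 (3.78 ± 1.13 CPM, SD, n = 3), and GK+mL the highest, with 8.02, 7.52 and 3.68 CPM (6.40 ± 2.38). Their difference, GK+mL over GK alone, was 0.76 on the log2 scale (SE 0.338, 95% interval 0.06 to 1.45, edgeR adjusted p = 0.755). It was higher in 3 of 3 mice and did not pass the threshold, nor did it with the block (0.72, edgeR adjusted p = 0.202). The pair was picked as the highest and lowest mean, a choice that neither the interval nor the count of mice allows for. GK alone lay below the mean of the 5 endogenous-GK conditions in 3 of 3 mice, by a log2 difference of -0.35 (95% interval -0.90 to 0.19, edgeR adjusted p = 0.917).

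Abcg8 differed more between mice than between conditions. Untreated cells held 2.57, 4.95 and 1.79 CPM in mice 1, 2 and 3, and GK-alone cells 4.08, 3.34 and 3.28 CPM. The 12 samples with a GKRP vector at endogenous GK ran from 2.49 to 6.52 CPM (median 4.40), and the 12 at raised GK from 1.68 to 6.10 CPM (median 4.24). In 10 of 10 conditions mouse 3 was the lowest, and in 9 of 10 mouse 1 was the highest. The GKRP mean over untreated was 0.50 (SE 0.360, 95% interval -0.25 to 1.24, edgeR adjusted p = 0.869), higher in 2 of 3 mice, and GK alone over the 5 endogenous-GK conditions was -0.21 (95% interval -0.89 to 0.47, edgeR adjusted p = 1), lower in 2 of 3 mice. Against untreated alone the sign was the other way, 0.20 (95% interval -0.71 to 1.104, edgeR adjusted p = 1), higher in 2 of 3 mice. Counting limits this gene: the 2 untreated cultures of mouse 3 held 0.705 and 2.60 CPM, and the spread left after mouse and condition (0.30, log2) was close to the counting spread (0.27). With the mouse as a block, the GKRP mean of Abcg8 over untreated was 0.50 (SE 0.213, 95% interval 0.06 to 0.94, edgeR adjusted p = 0.191), also not called. The intervals without the block also hold the spread between mice, so that depth alone does not set their width. Changes smaller than the intervals could have been missed in either gene of the transporter.

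**Figure D2:**
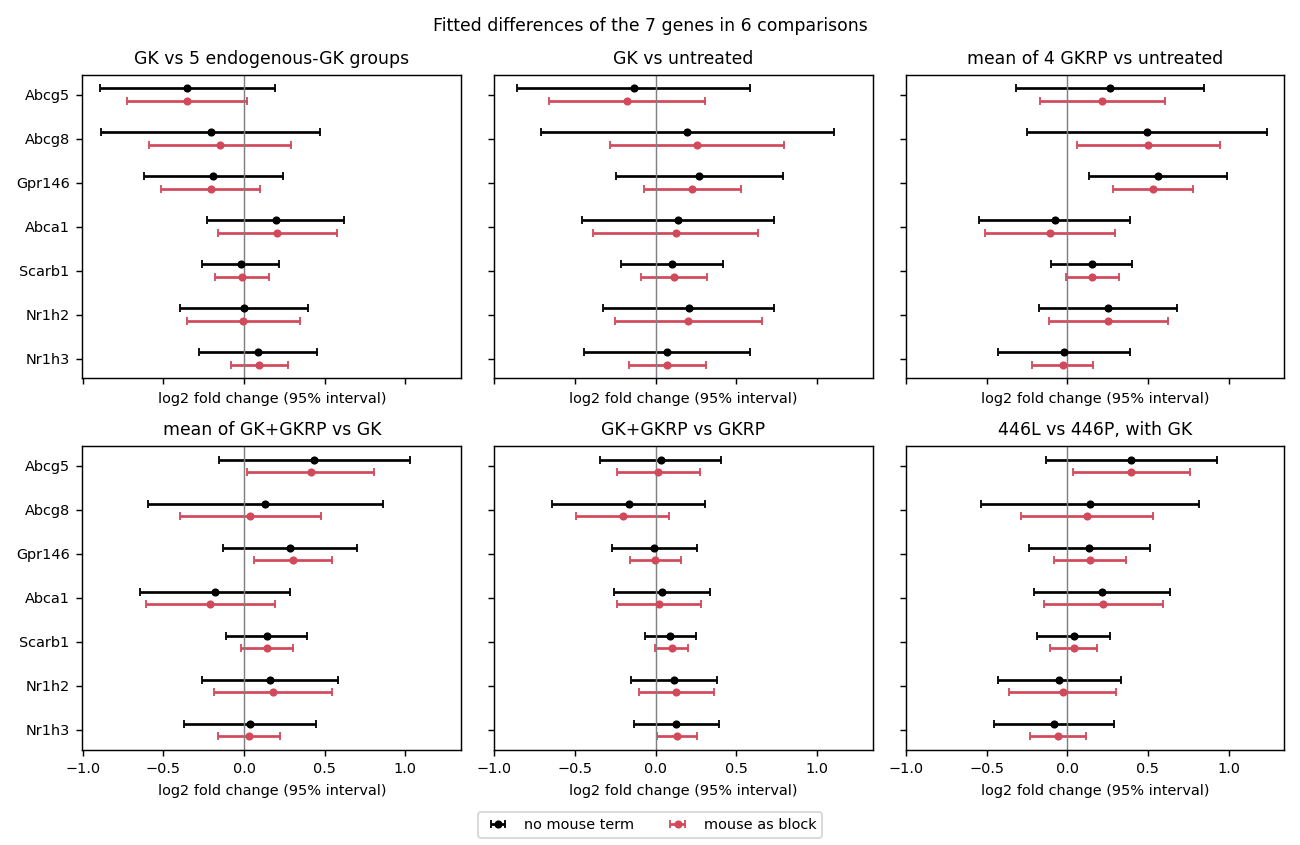
Fitted log2 fold changes (horizontal axes) of the 7 genes (vertical axes) in 6 comparisons, with 95% intervals; black is the fit with no mouse term and red the fit with mouse as a block. Only for Gpr146, in the average of hP, hL, mP and mL less untreated, is a difference called, at 0.53 with the block.

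Abca1 did not differ between conditions by more than its spread, and its 2 lowest values were both in libraries poor in long transcripts. Untreated cells held 113, 90.9 and 95.8 CPM in mice 1, 2 and 3, and GK-alone cells 110, 111 and 110 CPM. The 12 samples with a GKRP vector at endogenous GK ran from 70.9 to 130 CPM (median 93.8). At raised GK, the GK+hP cells held 96.3, 111 and 88.5 CPM, and the GK+mL cells 114, 129 and 96.9 CPM. The GK+hL cells held 56.3, 127 and 108 CPM, and the GK+mP cells 36.3, 118 and 94.3 CPM. The 56.3 and 36.3 CPM were from mouse 1, whose other 8 samples held 70.9 to 114 CPM. Abca1 has the longest mean effective length of the 7 genes, 7998 bases.

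The lowest fitted difference of Abca1, GK+mP against GK alone, was -0.41 (SE 0.272, 95% interval -0.97 to 0.15, edgeR adjusted p = 0.602), and it became -0.06 without those 2 libraries. For mouse GKRP at raised GK, 446L against 446P was 0.46 (95% interval -0.14 to 1.06, edgeR adjusted p = 1) with them and 0.10 (SE 0.178) without them. GK alone against the 5 endogenous-GK conditions, which holds neither library, was 0.20 (95% interval -0.23 to 0.62, edgeR adjusted p = 0.999), higher in 3 of 3 mice. The GKRP mean over untreated was -0.08 (95% interval -0.55 to 0.39, edgeR adjusted p = 1).

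**Figure D3:**
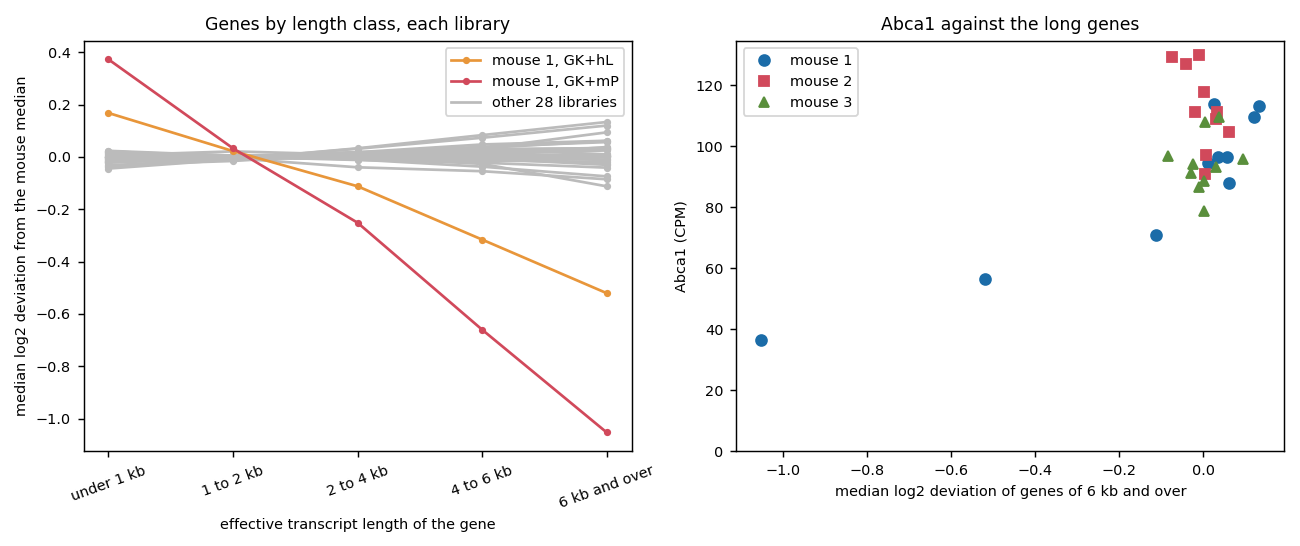
Left, the median log2 deviation (vertical axis) of genes in 5 classes of effective transcript length (horizontal axis), with 1 line per library; the 2 coloured lines are the GK+mP and GK+hL libraries of mouse 1, which fall to -1.05 and -0.52 for genes of 6 kb and over. Right, Abca1 in CPM (vertical axis, from 0) against that deviation (horizontal axis) in the 30 samples, with a symbol for each mouse; the 2 lowest Abca1 samples are the same 2 libraries.

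Scarb1, the HDL receptor gene, was among the steadier genes, and its residual spread was 0.12 on the log2 scale. Untreated cells held 73.8, 67.9 and 48.6 CPM in mice 1, 2 and 3, and GK-alone cells 72.1, 69.8 and 62.2 CPM. The 12 samples with GK and a GKRP vector ran from 68.7 to 83.1 CPM (median 74.5) and overlapped the GK-alone samples. Their difference from GK alone was 0.14 (95% interval -0.11 to 0.39, edgeR adjusted p = 0.903), higher in 3 of 3 mice. GK with GKRP exceeded GKRP alone by 0.09 (95% interval -0.07 to 0.25, edgeR adjusted p = 0.884), also in 3 of 3 mice, and the GKRP mean exceeded untreated by 0.15 (95% interval -0.10 to 0.41, edgeR adjusted p = 0.925), in 2 of 3 mice (-0.04 in mouse 1).

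Nr1h2 and Nr1h3 showed no called difference in any comparison. Nr1h2 held 30.7, 38.2 and 21.2 CPM in untreated cells of mice 1, 2 and 3, and 40.0, 37.9 and 25.96 CPM in GK-alone cells. With a GKRP vector it ran from 25.3 to 48.5 CPM at endogenous GK (median 32.0) and from 29.7 to 51.6 CPM at raised GK (median 37.6). The GKRP mean over untreated was 0.25 for Nr1h2 (95% interval -0.18 to 0.68, edgeR adjusted p = 0.926). Nr1h3, the liver-rich receptor, held 37.8, 31.4 and 24.7 CPM in untreated cells and 39.0, 30.4 and 29.2 CPM in GK-alone cells. With a GKRP vector it ran from 22.8 to 42.9 CPM at endogenous GK (median 28.8) and from 27.0 to 50.5 CPM at raised GK (median 31.7). The ranges given here overlapped for both genes. Of single conditions, GK+hL held 34.2, 33.8 and 35.2 CPM of Nr1h2 and GK+hP 38.6, 41.0 and 36.8 CPM. The difference of GK+hL from GK+hP was -0.17 on the log2 scale, with a 95% interval of -0.71 to 0.36 that includes 0. The Nr1h3 difference of GK with GKRP from GKRP alone was 0.13 (95% interval -0.13 to 0.39, edgeR adjusted p = 0.928), higher in 3 of 3 mice. Mouse 1 had the highest Nr1h3 in 10 of 10 conditions, at 40.0 CPM on average against 28.2 in mouse 2 and 28.7 in mouse 3.

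The comparison of 446L with 446P at raised GK, the variant contrast of the study, gave no call in the 7 genes. The widest difference was that of Abcg5, 0.40 (SE 0.257, 95% interval -0.13 to 0.93, edgeR adjusted p = 1), higher in 3 of 3 mice, and it was 0.29 without the 2 libraries low in long transcripts. With the mouse as a block it was 0.40 (95% interval 0.03 to 0.76, edgeR adjusted p = 0.638), also not called. Without the block it was 0.24 for the human pair and 0.55 for the mouse pair. Abca1 (0.22), Gpr146 (0.14), Abcg8 (0.14) and Scarb1 (0.04) lay above 0, and Nr1h2 (-0.05) and Nr1h3 (-0.08) below it, all with intervals that include 0. The median over the 7 genes was 0.14, beside 0.00 over all genes tested. It was -0.02 for the human pair (3 of 7 above 0) and 0.18 for the mouse pair (6 of 7), which holds the GK+mP library of mouse 1 that is low in long transcripts, and the difference between the pairs was not tested. At endogenous GK the median of the same contrast was 0.05.

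On the TPM scale, which divides by transcript length, the median level over the 30 samples was 1.06 for Abcg8, 1.36 for Gpr146, 1.95 for Abcg5, 8.92 for Abca1, 33.8 for Nr1h3, 36.0 for Scarb1 and 40.3 for Nr1h2. Neighbours in that order overlapped over samples, from 0.436 to 2.51 for Abcg8 up to 21.4 to 145 for Nr1h2. TPM of a gene depended on which of its transcripts the reads were given to. A single transcript held most of Gpr146 (Gpr146-201, 87.7% of TPM on average), Abca1 (Abca1-201, 81.3%) and Abcg5 (Abcg5-201, 80.8%). Gpr146-203 (11.1%) and Abca1-202 (18.7%) were the only others over 10% on average in these genes. Abcg8 was divided between Abcg8-203 (57.5%) and Abcg8-201 (34.8%), and Scarb1 between Scarb1-201 (55.0%) and Scarb1-206 (23.9%). The 378-base Nr1h3-207, which has no defined coding sequence, held 52.2% of the TPM of Nr1h3, ahead of the coding Nr1h3-201 (23.8%) and Nr1h3-202 (18.2%). Nr1h2 was divided over 4 transcripts that held over 10% each, led by the 411-base Nr1h2-215 (23.7%). Single libraries gave 0% to 87.6% to Nr1h2-215 and 27.2% to 93.3% to Nr1h3-207, so the levels of both receptors on this scale are uncertain.

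The animal accounted for more of the spread than the condition in 6 of the 7 genes. The mouse held 71.9% of the sum of squares of log2 CPM for Nr1h3, 61.7% for Abcg8, 48.4% for Abcg5, 47.7% for Scarb1 and 46.5% for Gpr146, beside a median of 28.7% over all genes. For Abca1 it held 24.2% and for Nr1h2 22.2%. The condition held 35.6% for Gpr146, the most of the 7 genes, and 10.98% to 26.3% for the others, beside a median of 25.7% over all genes. These shares are not corrected for the unlike numbers of groups, 10 conditions and 3 mice. Mouse 3, which carries both alleles, had the lowest Abcg8 in 10 conditions, and the lowest Abcg5 and Scarb1 in 9 each. With 1 animal of that genotype, no test of the genotype is possible. Markers of other liver cells also differed between animals: the 6 cholangiocyte markers summed to a median of 166, 18.03 and 27.7 CPM in mice 1, 2 and 3, and the 7 stellate cell markers to 35.3, 137 and 84.2 CPM. Their part in the differences between mice was not tested.

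Other genes of the same pathways are given by their counts, each beside the share of all 12177 genes called; in lists this short a count of 0 or 1 cannot be told apart from that share. Of the other LXR targets, 13 of 14 were tested, and GK alone against the 5 endogenous-GK conditions (0.427% of all genes called) called 1, Fasn, the fatty acid synthase, which is also driven by ChREBP and SREBP1c. Fasn averaged 496 CPM in GK-alone cells and 275 CPM in the endogenous-GK conditions, a log2 difference of 0.85 (SE 0.179, edgeR adjusted p = 0.0192), higher in 3 of 3 mice. With the block Scd1, a fatty acid desaturase, was called as well (0.43, edgeR adjusted p = 0.000725), where 1.99% of all genes were called. The median of the 13 was 0.04, beside -0.01 over all genes. Among those with no call, and chosen with their values seen, were Abcg1 (0.17), Mylip (-0.01) and Srebf1 (-0.10). With GKRP added to GK, Fasn was lower than with GK alone by a log2 difference of -0.61 (edgeR adjusted p = 0.138, and 0.0289 with the block), lower in 3 of 3 mice.

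Of the partners and coregulators of LXR, 12 of 13 were tested and 0 were called in the 6 comparisons, where 0% to 1.89% of all genes were. With the block, Ppargc1b, a coactivator, was called for the GKRP mean over untreated (1.46, edgeR adjusted p = 0.0243), at 1.31 against 0.448 CPM, in a comparison that called 4.16% of all genes. Of the genes of HDL and cholesterol handling, 19 of 20 were tested, and 0 were called with or without the block in those comparisons, where at most 4.34% of all genes were. Of the other canalicular transporters, 6 of 6 were tested. The phospholipid exporter Abcb4 was called with the block for GK alone against the 5 endogenous-GK conditions (0.49, edgeR adjusted p = 0.0036; 1.99% of all genes), but not without it (0.30, adjusted p = 1).

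Of 23 genes of cholesterol biosynthesis and its regulators, all tested, 0 were called without the block. With the block, Insig1, the protein that holds SREBP in the endoplasmic reticulum, was called in 3 comparisons, in which 1.99%, 4.16% and 4.34% of all genes were called. It was lower with GK alone than in the 5 endogenous-GK conditions (-0.65, edgeR adjusted p = 0.0036, lower in 3 of 3 mice). It was higher with GKRP than in untreated cells (0.48, edgeR adjusted p = 0.000779), and higher with GKRP and GK than with GK alone (0.52, edgeR adjusted p = 0.000308), in 3 of 3 mice each time. The untreated samples and those with a GKRP vector at endogenous GK enter both the first and the second of these. The GK-alone samples enter the first and the third, so the 3 are not independent. In GK alone against untreated, which holds no GKRP vector, 0 of the 23 genes were called with the block, where 0.361% of all genes were.

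The study set the excretion genes and Gpr146 beside cholesterol biosynthesis genes across samples, so such relations were measured here within each mouse. Log2 CPM was centred on the mean of each mouse, and p-values came from 100000 permutations of samples within mice, adjusted over the 35 pairs tested. Abcg5 and Abcg8, the 2 parts of one transporter, had an r of 0.44 (permutation p = 0.0226, adjusted p = 0.132) and a rho of 0.37 (permutation p = 0.0509, adjusted p = 0.272). It was 0.69, 0.60 and -0.06 within mice 1, 2 and 3. Without the 2 samples farthest from the median of Abcg5 it was 0.20. That choice also narrows the range of Abcg5, so how far the relation rests on those samples cannot be told. Both genes are near the counting limit in these libraries.

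For Abcg5, Abcg8 and Gpr146, the sign of the median relation with the biosynthesis enzymes depended on centring. Without centring, 13 of 19 enzymes had a negative r with Abcg5 (median -0.37), 15 of 19 with Abcg8 (median -0.33) and 14 of 19 with Gpr146 (median -0.44). After centring, 14 of 19 were positive with Abcg5 (median 0.09), 12 of 19 with Abcg8 (median 0.06) and 12 of 19 with Gpr146 (median 0.08). Within single mice the median over the 19 enzymes ran from -0.02 to 0.19 for these 3 genes. Idi1, an isoprenoid enzyme, had an r of -0.64 with Abcg8 as measured and 0.37 after centring. Other pairs stayed negative: the r of Gpr146 with Hsd17b7 was -0.80 as measured and -0.59 after centring. With Nsdhl it was -0.78 and -0.59. The 19 enzymes averaged 5.99, 6.28 and 6.34 log2 CPM in mice 1, 2 and 3, with 14 of them lowest in mouse 1 and 10 highest in mouse 3, whereas mouse 1 had the highest Abcg5 in 6 of 10 conditions and the highest Abcg8 and Gpr146 in 9 each. With 3 animals, a relation between the mouse means cannot be tested. The mean of the 19 enzymes, after centring, had no relation with any of the 7 genes past a permutation p of 0.05, and the largest in size was that of Abca1 (r = -0.40, permutation p = 0.0974; rho = -0.21, permutation p = 0.244), which was -0.20 without the 2 samples farthest from the median.

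**Figure D4:**
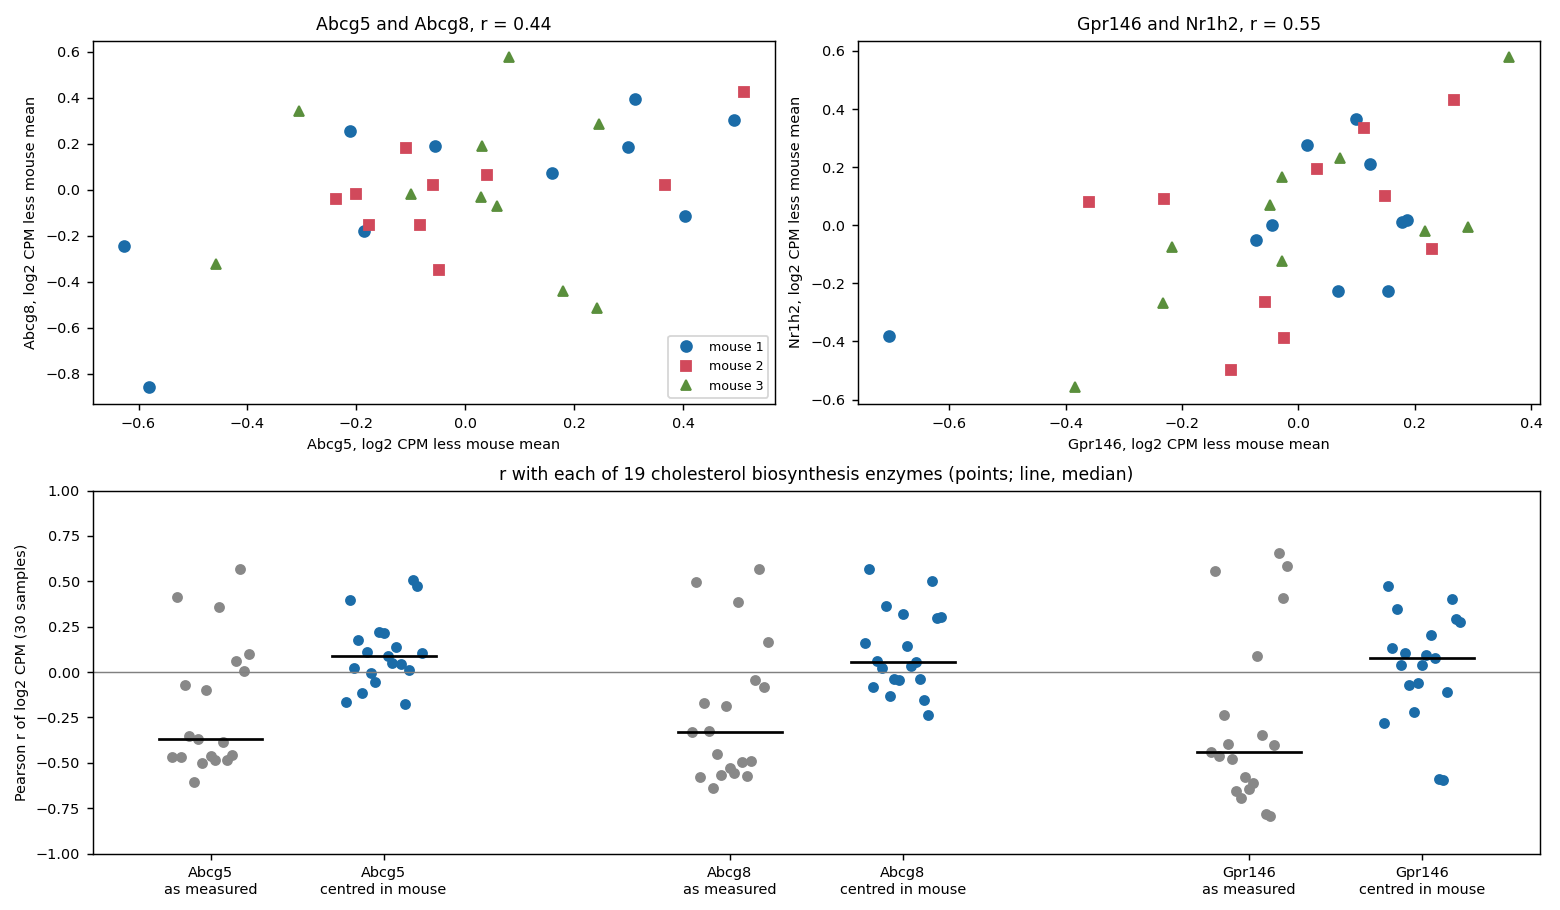
Top, log2 CPM less the mouse mean of Abcg5 and Abcg8 (left, r = 0.44) and of Gpr146 and Nr1h2 (right, r = 0.55) in the 30 samples, with a symbol for each mouse. Bottom, Pearson's r (vertical axis) of Abcg5, Abcg8 and Gpr146 with each of 19 cholesterol biosynthesis enzymes, grey as measured and blue after centring within mouse; lines are medians, which move from -0.37, -0.33 and -0.44 to 0.09, 0.06 and 0.08.

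The 2 LXR genes had the closest relation among the 7. Nr1h2 and Nr1h3 had an r of 0.78 (permutation p = 1e-05, the smallest that these permutations can give, adjusted p = 0.00035) and a rho of 0.75 (permutation p = 3e-05, adjusted p = 0.00105), with 0.71, 0.86 and 0.75 within mice 1, 2 and 3 and 0.72 without the farthest 2 samples. Genes were ranked by the share of G and C in their transcripts and cut into 10 classes of equal size, and both receptors are in the class richest in GC, with 61.2% and 58.0%. The median of that class moved from library to library, between -0.28 and 0.26 on the log2 scale, and Nr1h2 (r = 0.85) and Nr1h3 (r = 0.73) moved with it. After subtraction of the median of genes of like GC content in each library, r was 0.25 (permutation p = 0.198). Gpr146 and Nr1h2 had an r of 0.55 (permutation p = 0.00174, adjusted p = 0.0303), a rho of 0.47 (permutation p = 0.0118, adjusted p = 0.137) and 0.51 after the subtraction. It was 0.52, 0.35 and 0.78 within mice 1, 2 and 3, 0.40 (permutation p = 0.055) without the farthest 2 samples and 0.56 without the 2 libraries low in long transcripts. Gpr146 itself had an r of 0.37 with the median of the class richest in GC, and the part of GC content in its GKRP difference was not tested.

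**Figure D5:**
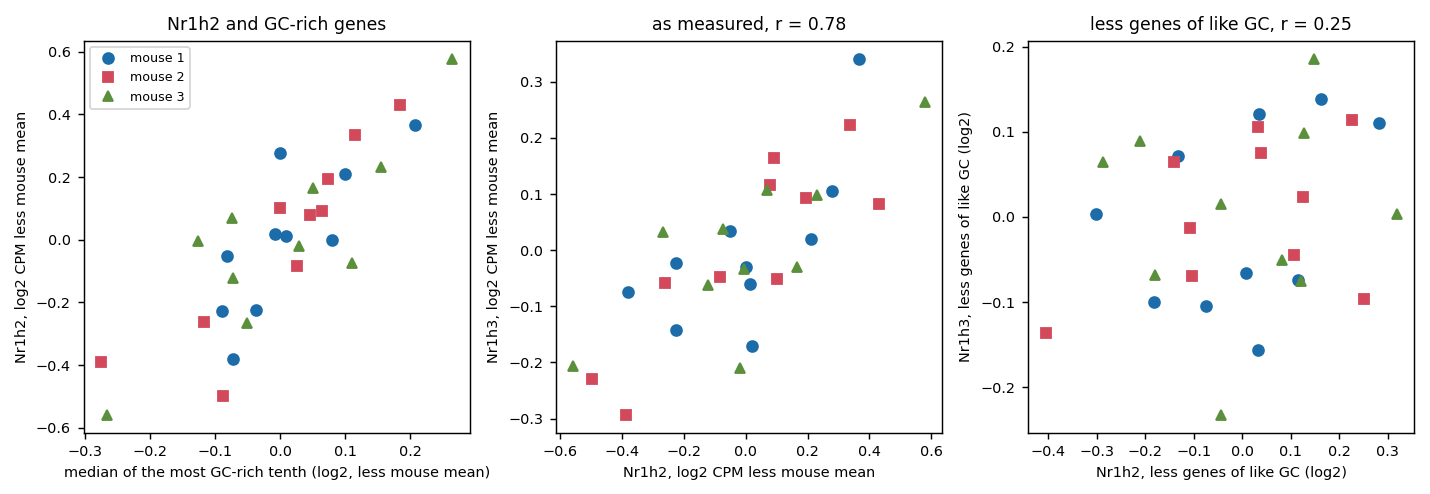
Left, centred log2 CPM of Nr1h2 (vertical axis) against the median of the class of genes richest in GC (horizontal axis) in the 30 samples. Middle and right, Nr1h3 against Nr1h2 as measured (r = 0.78) and after subtracting genes of like GC content (r = 0.25), with a symbol for each mouse.

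Among genes with a mean of at least 10 CPM, those whose centred pattern was most like each of the 7 genes over the 30 samples are given as a description. They were Tmt1a, Kmo and Gpt2 for Abcg5 (r = 0.75, 0.66 and 0.66), Itih5 and Snx16 for Abcg8 (0.62 and 0.62), and Fastkd3, Dna2 and Ubr7 for Gpr146 (0.80, 0.80 and 0.79). For Abca1 they were Fn1, Vps13b and Pi4ka (0.96, 0.91 and 0.91). Without the 2 libraries low in long transcripts, Fn1 stayed first at 0.86 and was followed by Ptges (0.79). For Scarb1 they were Mov10, Git1 and Rcc2 (0.72, 0.72 and 0.71), for Nr1h2 Lrg1, Rplp1 and Ier2 (0.87, 0.86 and 0.86), and for Nr1h3 Elob, Scamp3 and Dus1l (0.81, 0.80 and 0.80). Abcg5, Abcg8 and Gpr146 lay below 10 CPM on average and could not appear as the like of another gene.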

How the data were processed

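Gene expression was measured by RNA-seq in 36 cultures of primary mouse hepatocytes. The authors checked reads with FastQC, did not trim them, and quantified transcripts with Salmon 1.4.0 against Gencode M26 (GRCm39). The deposited files hold, for each transcript, estimated counts, TPM and an effective length. The 7 genes, the pathway lists and the tests were chosen with earlier results of these data known.

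Estimated counts of 137570 of 139225 transcripts (98.81%) were summed per gene and rounded. Reads of unmatched transcripts (0.392% to 0.639%) were left out. Sister cultures were added together. edgeR 4.0.16 (R 4.3.3) was used with TMM scaling, filterByExpr and the quasi-likelihood test on all 30 samples, 1 coefficient per condition, with Benjamini-Hochberg adjustment over 12177 genes. Adjusted p-values beside a comparison are from this fit. CPM for correlations had a prior count of 2 before log2. Correlations, permutations and GC or length classes were computed in Python 3.11.15 (numpy 2.4.6, pandas 2.3.3).

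Same-numbered samples came from the same animal. Samples of 1 mouse in different conditions deviated together from the condition means (median r 0.228, range -0.331 to 0.532, 135 pairs), and those of different mice and conditions did not (median r -0.124, 270 pairs). The numbers therefore pair the samples, and the mouse was added as a block in an alternative fit. Single cultures of a mouse are not separate animals. Intervals are 95% intervals of the fit.

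Named genes were the 7 genes, Gckr as a check, the called genes of 5 pathway lists (other LXR targets, LXR partners and coregulators, HDL and cholesterol handling, other canalicular transporters, cholesterol biosynthesis and its regulators), the 3 genes most like each of the 7, and transcripts that held at least 10% of a gene's TPM. Some results that this rule names are not reported here. Abcg1, Mylip and Srebf1 were named with their values seen, as were Idi1, Hsd17b7 and Nsdhl. Alternatives left out 1 mouse, a GK-alone culture of mouse 3 or the 2 libraries low in long transcripts (the last 2, and the GC subtraction, were chosen after seeing the data), or changed scaling, filter, tool or length offset. The scripts were tested on simulated data. Start sites and sequences are from GRCm39 with a later Gencode annotation than that of the files.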

Additional observations from a re-analysis of the deposited data

Results flagged for a closer look

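In the 6 GK-alone cultures, 1 culture of mouse 1 held 12.1 CPM of Gpr146 and stood apart from the next highest, at 6.28 CPM, by 0.871 of the range of the group (Dixon's critical value for 6 samples is 0.625). Its sister culture from the same mouse held 5.66 CPM. The value enters every comparison with GK alone, and its part in them was not tested. In the same 6 cultures, 1 culture of mouse 3 held 1462 CPM of Gckr, against 98.0 CPM in the next highest, a gap of 0.967 of the range. Without that culture the blocked difference of Gpr146 between GKRP and untreated was 0.53 (edgeR adjusted p = 0.00696). In all, 18 groups of 6 cultures were looked at, and chance alone sets about 1 group in 20 apart.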

How the results depend on the processing

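The count of the 7 genes called for the average of hP, hL, mP and mL less untreated was 0 without the mouse term and 1 (Gpr146) with the mouse as a block, also without the 2 libraries of mouse 1 or the GK-alone culture of mouse 3. It ranged from 0 to 1 when a mouse was left out. The block changed no other call of the 7 genes in the comparisons of several conditions, and the single vectors hP, hL and mP were called with it. The 140 log2 fold changes of the 7 genes were recomputed under up to 19 settings, 2 of which applied to 7 of them only. Of the 2394 values this gave, 2153 kept their direction without a call, 228 changed sign without a call either way, and 13 were called, each for Gpr146 with the mouse term. No called value changed sign. Over all genes, the 52, 1, 230, 196, 2 and 0 calls of the 6 comparisons rose to 242, 44, 506, 528, 17 and 42 with the block, while the offset for transcript length left 14 higher and 0 lower, 0 and 0, 23 and 10, 12 and 12, 2 and 0, and 0 and 0. DESeq2 called 77 higher and 88 lower for GK alone against the endogenous-GK conditions, where edgeR called 48 and 4 with those conditions pooled. With 1 coefficient per condition edgeR called 73 higher and 72 lower. Without mouse 3 the GKRP count against untreated was 33 higher and 6 lower.

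The r of Abcg5 and Abcg8 (0.44) lost a p under 0.05 as Spearman's rho (0.37), in the 15 samples with endogenous GK (0.52), the 15 with the GK vector (0.39), the 24 with a GKRP vector (0.37), on log2(TPM + 1) (0.40) and without the 2 farthest samples (0.20). It kept it with no centring (0.74), with each culture as a sample (0.35), with RLE size factors (0.44), without the 2 libraries low in long transcripts (0.47) and after the GC subtraction (0.46). Leaving out a mouse gave 0.19 to 0.67, and only without mouse 3 was p under 0.05. Depth limits Abcg8, with as few as 8 reads in a sample, more than the other genes.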
